A study of Mus musculus with 19 samples.

Results

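The choroid plexus is the secretory epithelium that hangs into the ventricles of the brain, and 10 genes that mark it, Ttr, Kl, Folr1, Clic6, Otx2, Prlr, Aqp1, Slc4a5, Sostdc1 and Enpp2, were followed in the striatum of wild-type and mutant huntingtin knock-in mice. These 10 genes are 10 of the 54232 gene identifiers in the deposited table, and all 10 were among the 18521 genes with enough counts to be tested. They were chosen by name as choroid plexus markers, with their levels in these same mice already known, so the members were selected on the values described here and their differences between genotypes are given as a description. Each was matched by its gene identifier to the mouse symbol.

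Striatal RNA was sequenced from 7 WT mice and from 3 knock-in genotypes of 4 mice each (KI-96, KI-571, KI-FL), all on a C57/BL/6 background and 6 months old. KI-FL mice carry the HD140Q knock-in allele, in which the mouse Htt gene encodes full-length mutant HTT with an expanded polyglutamine repeat. In KI-96 and KI-571 mice that allele was further cut with Cas9, in exon 2 or exon 13, so that a short or a longer N-terminal fragment with the repeat is made from the endogenous promoter. According to the study, mice with the truncating edits were bred to WT mice to give heterozygous KI-96 and KI-571 mice, and the zygosity of the sequenced KI-FL mice is not given in the sources used here. The study states that littermates were used in its experiments, but the labels tie no mouse to a litter, and they give neither sex nor batch. Xist, which is expressed from the inactive X chromosome of females, was at 886 to 1615 CPM in the 4 KI-96 mice and at 0.913 to 5.05 CPM in the 4 KI-571 mice, and spanned 0.267 to 1055 CPM in WT and 1.06 to 1210 CPM in KI-FL mice. Between KI-96 and KI-571, genotype and Xist level therefore cannot be told apart.

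The epithelium of the choroid plexus makes most of the cerebrospinal fluid. It moves ions, bicarbonate and water across its apical face, secretes transthyretin and other carriers, and takes up folate and hormones from the blood. Its genes are among the most restricted in the brain, and striatal neurons express few of them. The lateral ventricle, which holds a choroid plexus, borders the striatum. In RNA from bulk tissue, more cells of a type and more RNA per cell cannot be told apart.

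The libraries held 12669809 to 26388542 reads counted on genes, with a median of 18202412. The labelled tissue was checked on 20 genes of striatal projection neurons, whose mean log2 CPM (read counts scaled to a common library size, with library sizes adjusted by edgeR's TMM method) lay between 8.43 and 9.07 in every mouse, and Ppp1r1b, which encodes DARPP-32, was between 888 and 2234 CPM. Htt, counted from both alleles together, was at 178 ± 9.80 CPM (SD, n = 7) in WT, 186 ± 40.1 (n = 4) in KI-96, 124 ± 15.3 (n = 4) in KI-571 and 158 ± 17.5 (n = 4) in KI-FL mice. The 3 libraries that stood apart in the choroid plexus genes, numbered by the replicate number of the labels, were KI-571 mouse 2, KI-571 mouse 4 and KI-FL mouse 1. They were picked out by the levels described here and are named singly throughout. KI-FL mouse 4 stood apart in another way, as only 16384 genes had a count where its 3 companions of the same genotype had 23177 to 23950, and 3186 tested genes were at 0.

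RefSeq promoter entries were at hand for 5 of the 10 genes, in 10 windows on build GRCm38.p6. The 250 bases before a RefSeq transcript start are shown for Kl, Aqp1 and Slc4a5, the 3 genes whose windows hold a GC box, and for the Otx2 start whose window holds an OTX core. The windows of Slc4a5 and Otx2 precede internal starts and lie within the gene positions given further on. Matches to 4 motifs, searched on both strands, stand in capitals. They were TAATCC, the core bound by OTX-type homeodomain proteins such as OTX2 itself, then the CCAAT box spelled by its name, then TATAAA as the core promoter box, and GGGCGG as the GC box. None of the 4 contains another.
Kl, + strand, chr5:150952357-150952606: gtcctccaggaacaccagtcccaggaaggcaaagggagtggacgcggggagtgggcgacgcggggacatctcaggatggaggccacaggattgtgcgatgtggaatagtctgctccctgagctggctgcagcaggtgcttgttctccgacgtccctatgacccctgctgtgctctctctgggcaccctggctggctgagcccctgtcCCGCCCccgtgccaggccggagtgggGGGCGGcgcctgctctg
Aqp1, + strand, chr6:55336049-55336298: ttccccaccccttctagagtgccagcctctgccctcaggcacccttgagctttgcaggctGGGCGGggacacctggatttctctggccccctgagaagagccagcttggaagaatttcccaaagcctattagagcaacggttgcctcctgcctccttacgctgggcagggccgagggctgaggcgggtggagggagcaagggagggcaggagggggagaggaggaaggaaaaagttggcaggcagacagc
Slc4a5, + strand, chr6:83237125-83237374: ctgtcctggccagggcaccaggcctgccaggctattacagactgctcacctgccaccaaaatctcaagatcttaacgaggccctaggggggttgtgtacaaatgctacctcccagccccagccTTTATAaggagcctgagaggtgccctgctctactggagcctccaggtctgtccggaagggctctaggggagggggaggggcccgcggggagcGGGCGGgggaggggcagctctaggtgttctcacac
Otx2, - strand, chr14:48665110-48665359: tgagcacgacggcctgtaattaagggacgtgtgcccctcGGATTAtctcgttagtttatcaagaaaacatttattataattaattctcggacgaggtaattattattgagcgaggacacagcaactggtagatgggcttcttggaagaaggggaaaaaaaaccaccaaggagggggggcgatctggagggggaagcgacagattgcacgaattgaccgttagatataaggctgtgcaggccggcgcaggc
TAATCC or its reverse was found in 1 of the 10 windows, which belongs to Otx2, and in 6.25% of the 32851 windows of the same length in the RefSeq table used here. GGGCGG was found in 3 of 10 windows, those of Kl, Aqp1 and Slc4a5, against 32.7% of all windows. CCAAT was found in 2 of 10 (Otx2 and Prlr) against 33.8%, and TATAAA in 2 of 10 (Otx2 and Slc4a5) against 12.4%. These matches are letters in a window and say nothing about binding.

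Among the secreted proteins, Ttr encodes transthyretin, the carrier of thyroxine and of the retinol-binding protein in cerebrospinal fluid. It had the widest range in CPM of the 10 genes. In WT mice it was between 20.01 and 343 CPM with a median of 48.5. In KI-96 mice it was 7.29, 21.0, 3.25 and 60.2 CPM, in KI-571 mice 138, 4813, 18.4 and 4948 CPM, and in KI-FL mice 2783, 123, 37.7 and 23.0 CPM, in the order of the replicate numbers. Both KI-571 mice 2 and 4 and KI-FL mouse 1 were above every other mouse, and KI-571 mouse 3 was below the lowest WT mouse, so that genotypes overlapped. In the 3 high mice the Ttr level was 99.2, 102 and 57.3 times the WT median, and Ttr alone took 0.489%, 0.516% and 0.271% of all counts on genes. Ttr lies on chromosome 18 of GRCm38 (20665280 to 20674321, plus strand).

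Enpp2, which encodes autotaxin, the secreted enzyme that makes lysophosphatidic acid, had the highest base level of the 10 genes and is also expressed by oligodendrocytes. It was between 278 and 500 CPM in WT mice with a median of 322. The KI-96 values were 275, 280, 219 and 321 CPM, the KI-571 values 372, 1565, 277 and 2229 CPM and the KI-FL values 1312, 304, 253 and 227 CPM. The same 3 mice were highest, at 4.85, 6.91 and 4.07 times the WT median. The oligodendrocyte genes Mbp and Mobp, which encode myelin proteins, were not highest in those mice. KI-571 mouse 2 and KI-FL mouse 1 had the lowest Mbp of their genotypes, at 5002 and 4683 CPM. KI-571 mouse 4, with the highest Enpp2, had Mbp at 5962 CPM, above the KI-571 median of 5539 CPM. Enpp2 lies at chr15:54838901-54952892 on the minus strand, and 345 of its 5779 exonic bases overlap Gm26684 on the other strand.

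Kl encodes klotho, a co-receptor for fibroblast growth factors that is also shed into cerebrospinal fluid. It lies at chr5:150952607-150993817 on the plus strand. Its level in WT mice was 5.07 to 18.6 CPM with a median of 7.47. It was 2.74, 3.86, 5.26 and 7.65 CPM in KI-96 mice, 17.5, 113, 5.09 and 179 CPM in KI-571 mice and 109, 14.8, 5.66 and 3.59 CPM in KI-FL mice. No WT mouse reached the values of the 3 high mice, while the other 5 KI-571 and KI-FL values and the KI-96 values were within or below the WT range.

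Sostdc1, a secreted antagonist of BMP and Wnt signalling on chr12:36314139-36318452 (plus strand), was between 0.655 and 4.01 CPM in WT mice with a median of 0.920. It was 0.649, 0.589, 0.434 and 1.45 CPM in KI-96 mice, 3.17, 24.0, 0.876 and 22.2 CPM in KI-571 mice and 17.3, 1.11, 0.202 and 0 CPM in KI-FL mice. The 0 in KI-FL mouse 4, here and for Slc4a5, Folr1 and Otx2, allows up to 0.196 CPM, the level of 3 counts in that library, which covers counting error only.

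Among the transporters and channels, Aqp1 encodes the water channel of the apical membrane, and its low base level made its differences steep. Aqp1 (chr6:55336432-55348555, plus strand) was between 0.229 and 2.03 CPM in WT mice with a median of 0.649. It was 1.15, 0.262, 0.108 and 0.703 CPM in KI-96 mice, 3.36, 35.8, 0.383 and 30.3 CPM in KI-571 mice and 22.8, 1.35, 0.505 and 2.22 CPM in KI-FL mice. KI-571 mice 2 and 4 and KI-FL mouse 1 were 55.1, 46.7 and 35.1 times the WT median, and KI-571 mouse 1 was also above every WT mouse.

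Slc4a5 encodes the sodium bicarbonate cotransporter NBCe2 and lies at chr6:83219828-83304945 on the plus strand. It was between 0.205 and 1.87 CPM in WT mice with a median of 0.687. The values were 0.289, 0.262, 0.163 and 0.662 CPM in KI-96 mice, 4.08, 34.9, 0.822 and 40.1 CPM in KI-571 mice and 24.4, 0.792, 0.910 and 0 CPM in KI-FL mice. All 4 KI-96 mice were below the WT median, and KI-571 mouse 1 was again above every WT mouse.

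Clic6, a protein of the chloride intracellular channel family on chr16:92485736-92541243 (plus strand), had, after Enpp2, the narrowest range as a ratio of highest to lowest. In WT mice it was between 16.1 and 39.0 CPM with a median of 21.7. It was 25.5, 17.3, 29.5 and 22.05 CPM in KI-96 mice, 38.3, 107, 19.8 and 139 CPM in KI-571 mice and 96.2, 44.5, 28.3 and 9.99 CPM in KI-FL mice. The 3 high mice were 4.94, 6.43 and 4.43 times the WT median.

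Of the receptors, Folr1 encodes folate receptor alpha, which carries folate into cerebrospinal fluid, and lies at chr7:101858331-101870788 on the minus strand. It was between 0.802 and 3.74 CPM in WT mice with a median of 1.25. It was 0, 1.11, 0.325 and 1.28 CPM in KI-96 mice, 3.89, 41.5, 1.75 and 34.6 CPM in KI-571 mice and 21.2, 1.19, 0.859 and 0 CPM in KI-FL mice. The 0 in KI-96 mouse 1 allows up to 0.216 CPM. KI-571 mouse 1 was just above the highest WT mouse.

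Prlr, the prolactin receptor (chr15:10177238-10349180, plus strand), followed the others in the 3 high mice and least elsewhere. It was between 1.12 and 5.76 CPM in WT mice with a median of 3.04. It was 0.938, 2.16, 8.19 and 4.30 CPM in KI-96 mice, 3.70, 34.2, 0.822 and 58.1 CPM in KI-571 mice and 25.2, 1.90, 3.84 and 2.02 CPM in KI-FL mice. KI-96 mouse 3, which had the lowest Ttr of all 19 mice, had the highest Prlr outside the 3 high mice. Prlr shares 203 of its 15339 exonic bases with Gm21973 on the same strand. That library had 24.2% of its reads outside genes, where the other 18 had 11.1% to 15.99%.

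Otx2, the homeodomain transcription factor that the epithelium keeps into adulthood, is the only regulator among the 10. It was between 0.708 and 3.63 CPM in WT mice with a median of 1.83. It was 0.794, 1.44, 2.33 and 2.32 CPM in KI-96 mice, 3.27, 13.0, 1.75 and 29.3 CPM in KI-571 mice and 13.5, 2.77, 3.23 and 0 CPM in KI-FL mice. Here KI-571 mouse 4 was well above KI-571 mouse 2, which was not so for Ttr. Otx2 lies at chr14:48657677-48673819 on the minus strand, and 154 of its 4221 exonic bases are shared with Otx2os1 on the other strand and 168 with Gm49154 on the same strand. The strand setting of the counting is not given in the sources used here, so reads of those bases cannot be assigned between them.

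**Figure D1:**
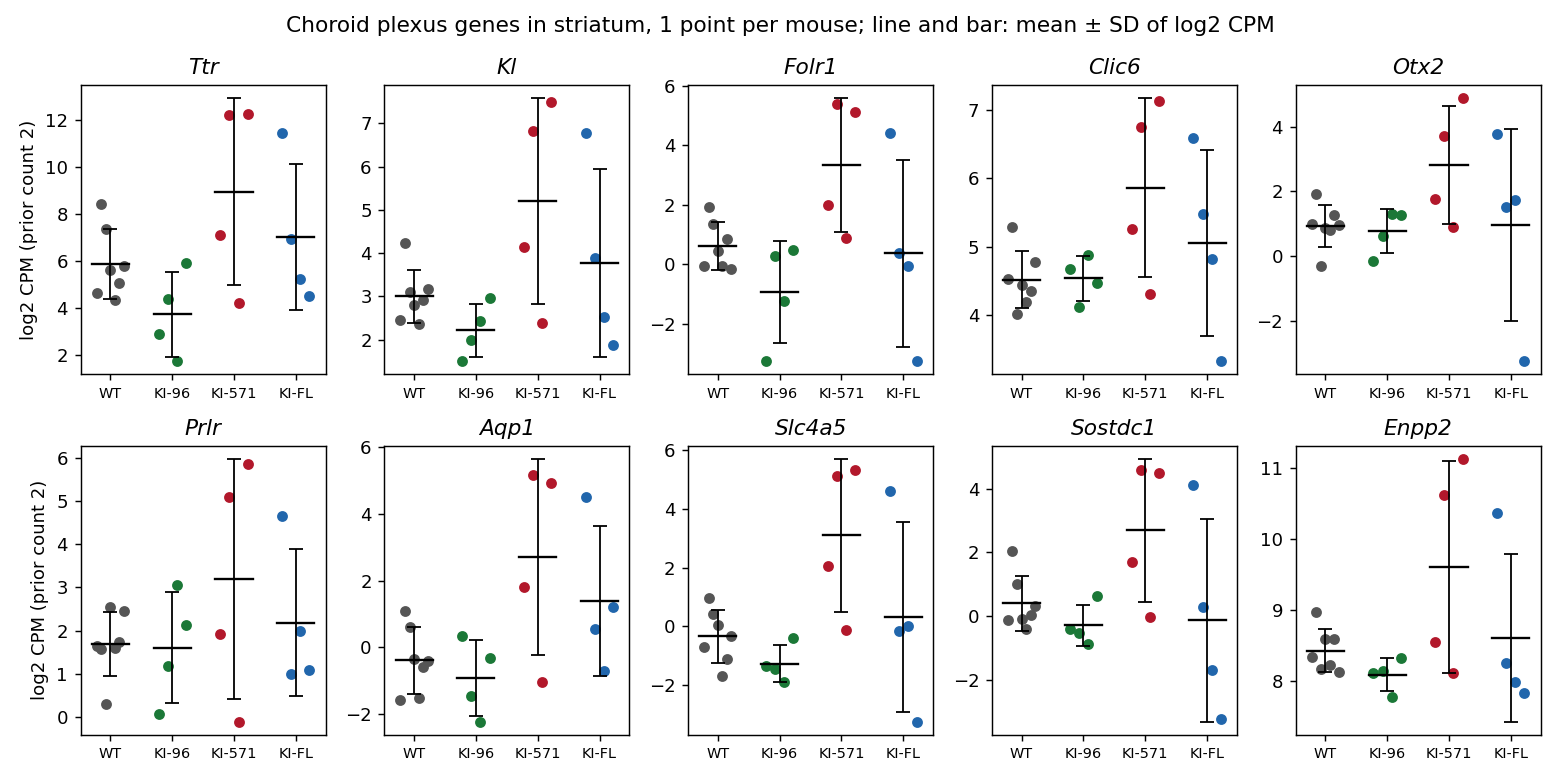
Level of each of the 10 genes in 19 mice. The y axis is log2 CPM with a prior count of 2, each point is 1 mouse, and lines with bars give the mean ± SD by genotype. In every panel the points of KI-571 mice 2 and 4 and KI-FL mouse 1 lie above those of the other 16 mice.

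Per length, Enpp2 and Ttr were the most abundant of the 10 genes at their median over the 19 mice, at 52.6 and 40.9 RPKM (reads per kilobase of merged exons, at the CPM scale). Clic6 followed at 6.53 RPKM. Kl (0.801), Otx2 (0.545), Folr1 (0.542), Sostdc1 (0.517), Aqp1 (0.268), Prlr (0.210) and Slc4a5 (0.136) were below 1 RPKM at their medians. In the 3 high mice Ttr led instead, at 4058, 4172 and 2346 RPKM against 271, 386 and 227 RPKM for Enpp2. Ttr made up 71.0%, 64.2% and 62.9% of the counts of the 10 genes in those mice, and 1.21% to 37.4% in the other 16.

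As a level of choroid plexus RNA per mouse, the CPM of the 10 genes were summed. The sums were 6781 in KI-571 mouse 2, 7711 in KI-571 mouse 4 and 4423 in KI-FL mouse 1, and lay between 268 and 919 in the other 16 mice. Enpp2, which oligodendrocytes express as well, made up much of the sum in the 16. Without Enpp2 the sums were 5216, 5482 and 3112 CPM in the 3 mice, in that order, and 39.4 to 419 CPM in the other 16. The mean log2 CPM over the 10 genes was 2.47 ± 0.59 (SD, n = 7) in WT, 1.75 ± 0.57 (n = 4) in KI-96, 4.75 ± 2.36 (n = 4) in KI-571 and 2.95 ± 2.29 (n = 4) in KI-FL mice. Ordered by that mean, KI-571 came first, then KI-FL, WT and KI-96, and the ranges of all neighbours in this order overlapped. They ran from 1.95 to 6.86 in KI-571, 0.69 to 6.12 in KI-FL, 1.79 to 3.64 in WT and 1.24 to 2.55 in KI-96 mice. The SD within KI-571 was larger than the distance of its mean from that of WT or KI-FL. Without the 3 high mice, the mean was 2.79 in KI-571 (n = 2) and 1.90 in KI-FL (n = 3).

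The 3 high mice were not the only ones in which the genes were high together. WT mouse 2 had the highest value among WT mice for 9 of the 10 genes, Prlr being the exception. KI-571 mouse 1 was above KI-571 mouse 3 for 10 of 10 genes, and KI-571 mouse 3 was lowest of its genotype for all 10. KI-FL mouse 1 was highest of its genotype for 10 of 10, and the sparse library of KI-FL mouse 4 was lowest for 8. Among KI-96 mice, mouse 4 was highest for 6 genes.

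The likeness of 2 genes was measured as Pearson's r of log2 CPM over mice, given here as a description, since all points share their library and its depth. Over 19 mice all 45 pairs of the 10 genes had a positive r, with a median of 0.88 and a range from 0.57 (Otx2 and Aqp1) to 0.95 (Ttr and Kl). Spearman's rho had a median of 0.67 and ranged from 0.24 to 0.94. After the mean of each genotype was subtracted, the median r was 0.85. The r over 19 mice rests on the 3 high mice in part. Over the other 16 mice the median r was 0.59, 42 of 45 pairs were positive and 25 were above 0.5, and rho had a median of 0.46. These 16 include the sparse library of KI-FL mouse 4, where Folr1, Otx2, Slc4a5 and Sostdc1 shared the lowest value, at 0 counts. Such a point weighs more in r than in rho. Folr1 and Otx2 had r = 0.68 and rho = 0.38, while Folr1 and Sostdc1 had 0.78 and 0.80.

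Over those 16 mice Ttr and Kl were still the closest pair, with r = 0.83 and rho = 0.89. Ttr was also close to Slc4a5 (r = 0.72), Folr1 (0.70), Enpp2 (0.67), Aqp1 (0.67) and Sostdc1 (0.64). The r of Ttr was lower with Clic6 (0.33) and Otx2 (0.25) and near 0 with Prlr (-0.05). Prlr had a median r of 0.10 with the other 9 genes, and Prlr and Aqp1 ran against each other (r = -0.28). Aqp1 (0.28) and Clic6 (0.41) also had low medians, and the other 7 genes had medians between 0.56 and 0.68. By rho the medians were 0.10 for Prlr, 0.32 for Clic6, 0.34 for Aqp1 and 0.42 for Otx2, and 0.51 to 0.69 for the rest. In KI-FL mouse 4 Aqp1 was at 2.22 CPM, while Folr1, Otx2, Slc4a5 and Sostdc1 were at 0.

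**Figure D2:**
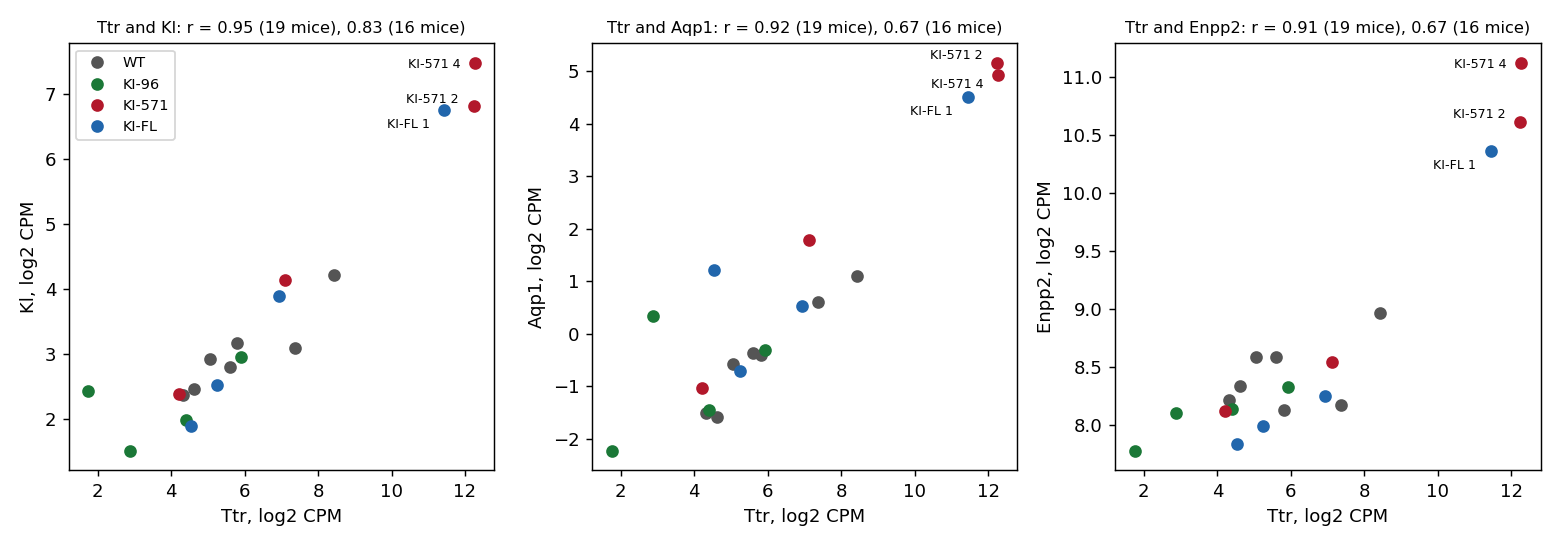
Level of Kl, Aqp1 and Enpp2 against Ttr, both in log2 CPM, with 1 point per mouse coloured by genotype. The 3 named mice lie at the upper right of each panel, and the titles give r over all 19 mice and over the 16 others.

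The proportions among the genes in the 3 high mice were compared by the excess of each gene over its WT median, expressed per 1000 CPM of Ttr excess. Enpp2 had an excess of 261, 389 and 362 in KI-571 mouse 2, KI-571 mouse 4 and KI-FL mouse 1. Kl had 22.1, 35.1 and 37.0, and Clic6 17.9, 24.0 and 27.2. Slc4a5 (7.18, 8.04 and 8.66), Folr1 (8.46, 6.80 and 7.29) and Aqp1 (7.37, 6.06 and 8.09) were the steadiest, with a highest value at most 1.34 times the lowest. Otx2 was the least steady, with 2.35, 5.61 and 4.28, a ratio of 2.39. No replicate of a mouse was sequenced, so these ratios have no error beyond counting.

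In the comparison with WT by edgeR's quasi-likelihood test, 0 of the 10 genes passed an adjusted p of 0.05 in KI-571 mice, where 0.0324% of all tested genes passed. All 10 were higher on average, with log2 fold changes from 1.67 ± 0.45 (SE) for Enpp2 to 4.65 ± 1.24 for Ttr and a median of 3.15, beside -0.01 over all tested genes. Of the 10, 10 had a log2 fold change above 1, beside 1.34% of all genes, and 10 had an unadjusted p under 0.05 and a higher level, beside 3.89%. The smallest adjusted p, 0.0959, was that of Aqp1 and Slc4a5, the only 2 of 10 under 0.1 (0.157% of all genes). DESeq2 called 4 of 10, namely Aqp1 (log2 fold change 4.41, adjusted p = 0.00797), Slc4a5 (4.60, adjusted p = 0.0166), Ttr (4.66, adjusted p = 0.0255) and Kl (3.19, adjusted p = 0.0307), beside 0.688% of the genes it tested. Without the 3 high libraries the 10 log2 fold changes lay between -0.62 and 1.58 with a median of 0.37, and 7 of 10 were positive. Of the 10, 0 had an unadjusted p under 0.05 (7.32% of all genes). These libraries were left out because they were highest in these genes, so the fall was set by that choice. Of the 2 remaining KI-571 mice, mouse 1 exceeded every WT mouse for Aqp1, Folr1 and Slc4a5 and was within the WT range for the rest, and mouse 3 exceeded none.

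In KI-FL mice 0 of 10 genes passed against WT, beside 0.194% of all genes. Log2 fold changes ran from 0.58 ± 0.46 (SE) for Enpp2 to 3.03 ± 0.91 for Aqp1 (adjusted p = 0.123 by edgeR), with a median of 1.74, beside -0.03 over all genes. Of the 10, 8 were above 1 (1.68% of all genes) and 4 had an unadjusted p under 0.05 and a higher level (7.89%). These 4 were Ttr, Kl, Aqp1 and Slc4a5, and DESeq2 called 0 of 10 (2.75% of all genes). Without the 3 high libraries the log2 fold changes lay between -1.81 and 0.69, with a median of -0.43 and 3 of 10 positive. KI-FL mouse 1 was left out for its high levels of these genes, so this fall was set by that choice too. In that fit 2 of 10, Sostdc1 (log2 fold change -1.81) and Enpp2 (-0.44), had an unadjusted p under 0.05, beside 16.6% of all genes. The high WT mouse 2 and KI-FL mouse 4 with its zeros stayed in that fit. Its p-values follow a choice made by level and are a description only.

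In KI-96 mice 0 of 10 genes passed against WT (0.027% of all genes), and 0 of 10 had an unadjusted p under 0.05 (7.45%). The log2 fold change was negative for 9 of 10 genes, from -0.01 ± 0.46 (SE) for Clic6 to -2.08 ± 1.33 for Ttr, and 0.18 ± 0.81 for Prlr, with a median of -0.68. With the log2 CPM of Xist as a covariate all 10 were positive, from 0.025 for Enpp2 to 1.445 for Aqp1, so the direction did not hold. DESeq2 called 0 of 10 (0.151% of all genes), and the KI-96 and WT values overlapped for every gene.

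**Figure D3:**
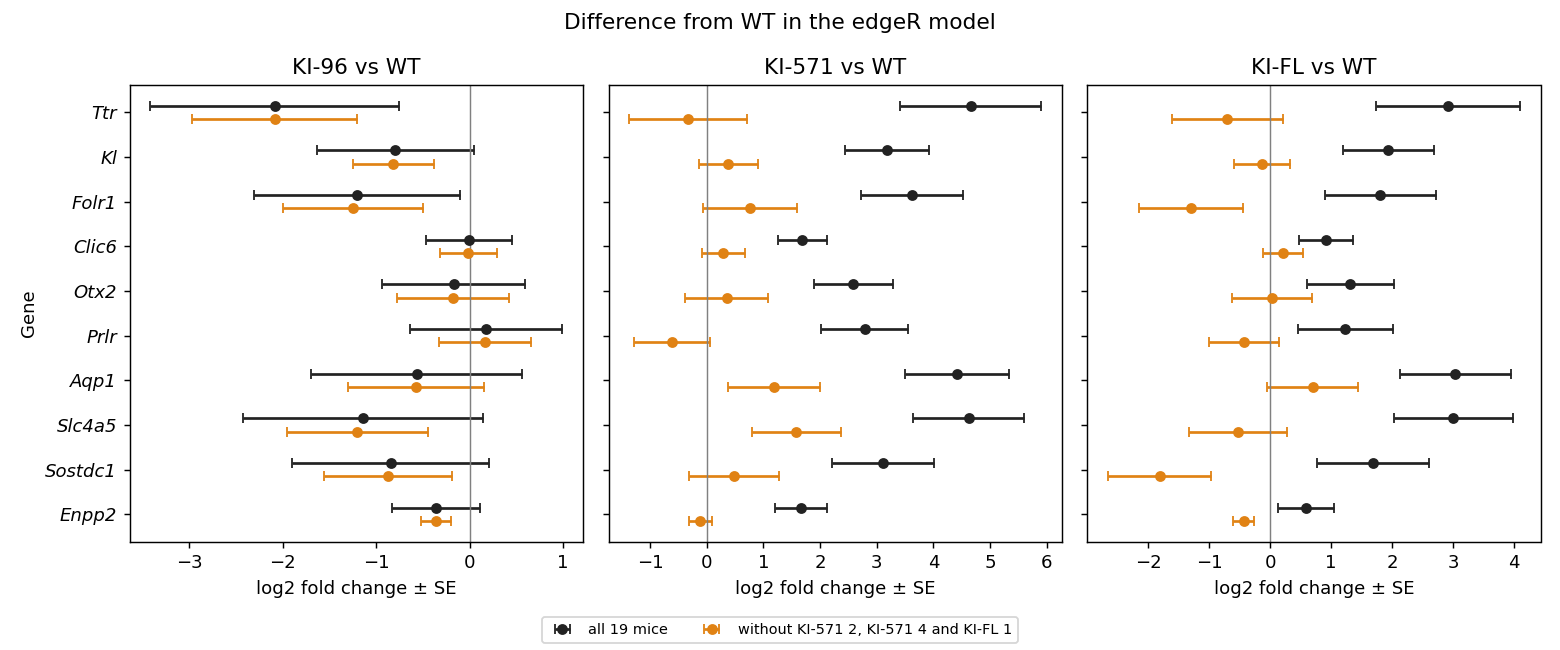
Log2 fold change against WT with its SE for the 10 genes, from the edgeR model of all 19 mice (black) and of the 16 mice left without KI-571 mice 2 and 4 and KI-FL mouse 1 (orange). The medians of 3.15 in KI-571 and 1.74 in KI-FL became 0.37 and -0.43 without these mice, which were picked out by their levels of these genes.

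Between the knock-in genotypes, 0 of 10 genes passed when KI-96 was compared with KI-571 (0.0054% of all genes passed), although 10 of 10 were lower in KI-96 with an unadjusted p under 0.05 (2.38%). The median log2 fold change was -3.97. DESeq2 called 4 of 10, Ttr, Kl, Aqp1 and Slc4a5, beside 0.189%. Against KI-FL, 0 of 10 passed in KI-96 (0.0% of all genes), with 6 of 10 lower at an unadjusted p under 0.05 (3.77%). Between KI-571 and KI-FL 0 of 10 passed (0.0864%) and 0 of 10 had an unadjusted p under 0.05 (8.9%), although all 10 were higher in KI-571, with a median log2 fold change of 1.41. These comparisons share mice with those against WT. Without the 3 high libraries the median log2 fold change was -1.27 for KI-96 against KI-571, -0.21 for KI-96 against KI-FL and 0.43 for KI-571 against KI-FL. The libraries were left out by these same levels, so the p-values of that fit are a description only. An unadjusted p under 0.05 was found in it for Kl, Folr1 and Slc4a5, all lower in KI-96 than in KI-571 (1.99% of all genes in either direction). It was found for none of the 10 between KI-96 and KI-FL (9.75%), and for Slc4a5 and Sostdc1, both higher in KI-571 than in KI-FL (6.99%). KI-FL mouse 4, with 0 counts for both genes, stayed in that fit. Slc4a5 and Sostdc1 were at 4.08 and 3.17 CPM in KI-571 mouse 1 but at 0.822 and 0.876 CPM in KI-571 mouse 3.

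Another list of 46 choroid plexus genes, which was also written with earlier results of these data known, moved in the same mice. Of its genes 43 were tested. In KI-571 mice 43 of 43 were higher than in WT with a median log2 fold change of 1.96, 39 had an unadjusted p under 0.05 (3.89% of all genes were higher at that level) and 0 passed the adjustment (0.0324%), while DESeq2 called 13 (0.688%). In KI-FL mice 42 of 43 were higher with a median of 0.80, 18 had an unadjusted p under 0.05 (7.89%) and 0 passed (0.194%), while DESeq2 called 1 (2.75%). In KI-96 mice 13 of 43 were higher (47.2% of all genes). Without the 3 high libraries 32, 18 and 13 of 42 tested genes were higher in KI-571, KI-FL and KI-96 mice. The 3 mice with the highest level were KI-571 mouse 2, KI-571 mouse 4 and KI-FL mouse 1 for 38 of the 43 genes, as for all 10 members, and for 1.31% of all tested genes. The same held for 4 of 30 ependymal genes (13.3%) and 2 of 21 meningeal genes (9.52%), lists described further on.

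The genes of that list most like Ttr were 1500015O10Rik, which encodes the secreted peptide augurin (r = 0.95 over 19 mice and 0.80 over 16), F5, coagulation factor V (0.94 and 0.75), and Cldn2, the claudin of leaky tight junctions (0.93 and 0.72). Slc13a4, a sulfate transporter (0.92 and 0.69), Wfdc2, a secreted whey acidic protein (0.92 and 0.69), and Igfbp2, a binding protein of insulin-like growth factors (0.91 and 0.64), came next. Cldn2 was at 28.4, 28.0 and 18.9 CPM in the 3 high mice and at most 2.59 CPM in the other 16. F5 was at 48.8, 58.9 and 30.7 CPM against at most 6.36 CPM, and Igfbp2 at 83.8, 103 and 73.3 CPM against at most 19.4 CPM.

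The 4 most abundant genes of the list separated the mice little or not at all. Car12, a carbonic anhydrase, was at 86.3, 126 and 87.2 CPM in the 3 high mice and at most 73.8 CPM elsewhere. Htr2c, a serotonin receptor that striatal neurons express as well, was at 76.5, 110 and 108 CPM against at most 105 CPM. Atp2b3, a calcium pump, and Vat1l overlapped between the 3 high mice and the rest, with Vat1l at 139, 179 and 168 CPM against 99.7 to 220 CPM in the other mice.

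**Figure D4:**
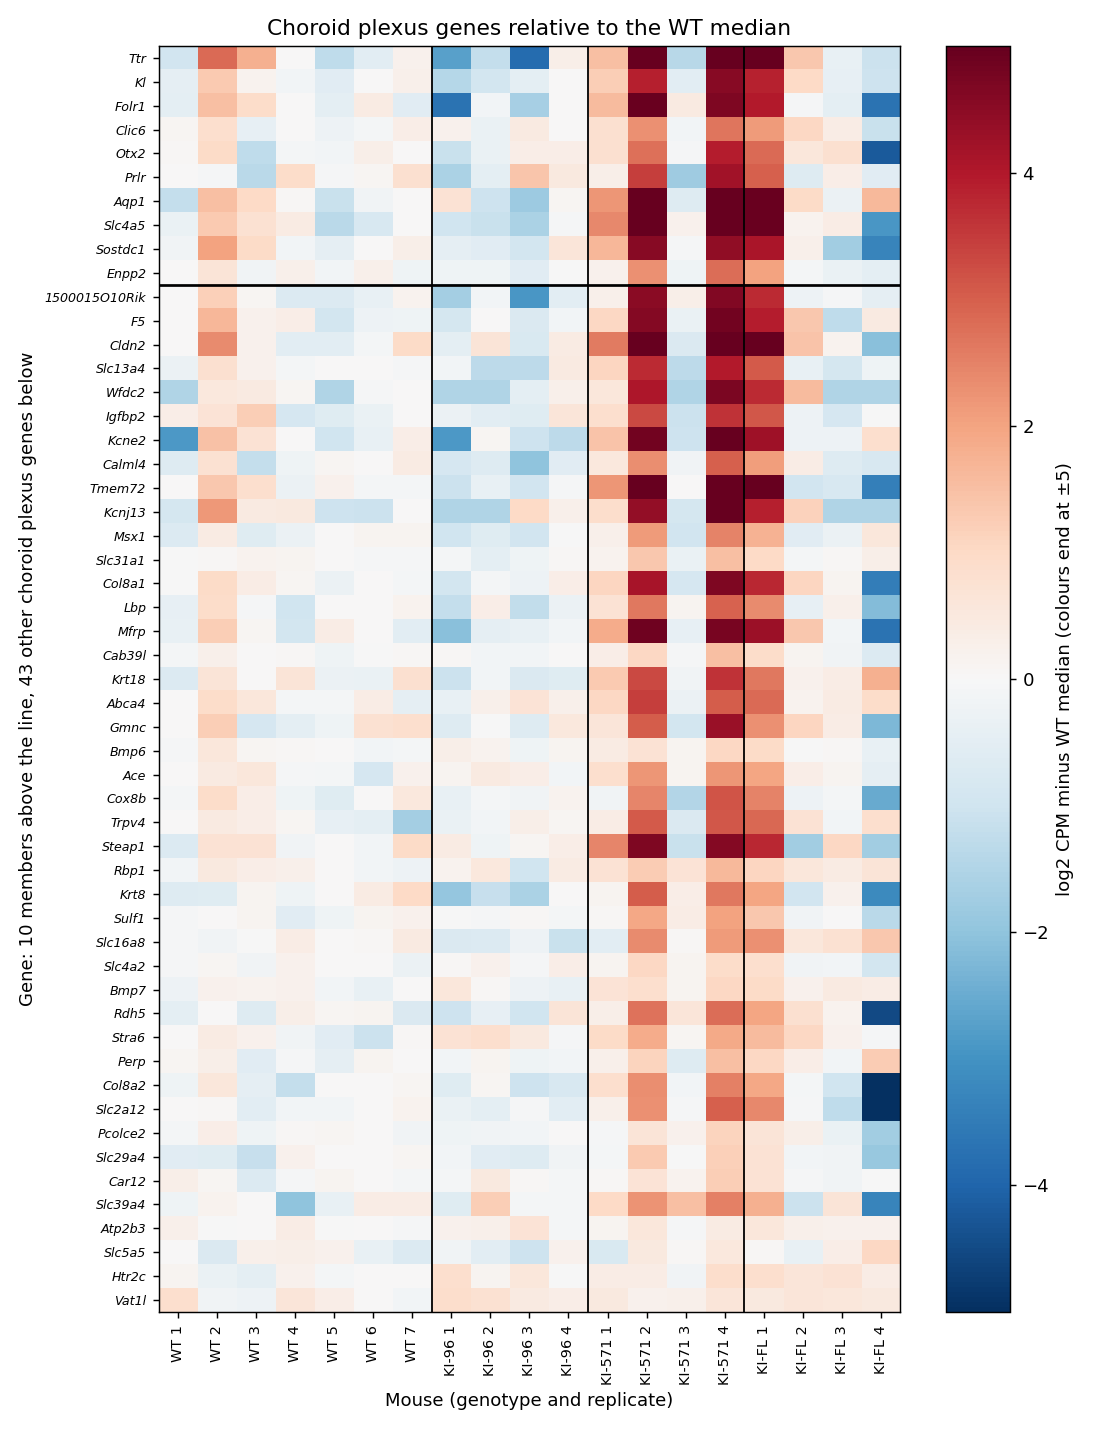
Log2 CPM minus the WT median for the 10 genes (above the line) and 43 other choroid plexus genes (below, ordered by their r with Ttr) in 19 mice. Red columns mark KI-571 2, KI-571 4 and KI-FL 1, WT 2 and KI-571 1 are paler red, and the lowest rows, Atp2b3, Slc5a5, Htr2c and Vat1l, show little colour.

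Outside the 2 choroid plexus lists, the genes closest to Ttr over 19 mice by r were the long noncoding RNA 2900040C04Rik (0.94), Prr32 (0.94), Sult1c2, a sulfotransferase (0.92), Wdr86 (0.91), Rbm47, an RNA-binding protein (0.91), and the antisense transcript Otx2os1 (0.89). Otx2os1 shares exonic bases with Otx2 and was at 1.96, 1.77 and 1.19 CPM in the 3 high mice and at most 0.624 CPM elsewhere. The other 9 of the 15 closest genes were on the choroid plexus list, Kcne2, Calml4 and Tmem72 among them. Tmem72, at 54.8, 66.6 and 46.8 CPM against at most 5.14 CPM, was the most separated of all tested genes. At the other end, Frmd4a (-0.87), Gprin2 (-0.86), Plxnc1 (-0.86), Grip1 (-0.86) and L1cam (-0.83) had the lowest r.

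Of the other 9 members 7 were among the 100 genes most like Ttr over 19 mice, as were 27 of the 43 other choroid plexus genes, 1 of 21 meningeal genes and 0 genes of the ependymal, oligodendrocyte, striatal, liver, red cell, retinal pigment epithelium, thalamic, septal and cortical lists. Ependymal cells line the ventricles beside the choroid plexus and carry motile cilia. Their list had a median r with Ttr of 0.44 over 19 mice and 0.29 without the 3 high mice, beside 0.04 and 0.05 over all tested genes. The cortical list, of cells not at the ventricle, had 0.46 and 0.45, and the 43 other choroid plexus genes had 0.83 and 0.41. The summed level of the ependymal list was 171 to 335 CPM in WT, 151 to 231 in KI-96, 197 to 343 in KI-571 and 170 to 242 CPM in KI-FL mice. Foxj1, the master regulator of motile cilia, was at 28.7, 34.3 and 25.6 CPM in the 3 high mice and between 5.29 and 29.9 CPM in the others. In KI-571 mice 21 of 30 ependymal genes were higher than in WT (48.3% of all genes), 1 of them at an unadjusted p under 0.05 (3.89%). In KI-FL mice 5 of 30 were higher (46.1%), and the sparse library of KI-FL mouse 4 had 0 counts for 10 of the 30.

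Meningeal genes, listed for the fibroblasts of the brain's coverings, summed to 122 to 137 CPM in WT, 118 to 148 in KI-96, 125 to 163 in KI-571 and 119 to 132 CPM in KI-FL mice. Pdgfra, Aebp1 and Slc13a3 led that list. Pdgfra alone was at 50.3, 52.6 and 50.2 CPM in the 3 high mice and 46.4 to 65.7 CPM in the others. By mean log2 CPM of the list, which gives each gene the same weight, KI-571 mouse 4 (2.21) and KI-571 mouse 2 (2.04) were highest, with KI-FL mouse 1 (1.66) at rank 5. Oligodendrocyte genes summed to 11549 to 16621 CPM in WT and 11431 to 16062 CPM in KI-571 mice, and 1 of 18 was higher in KI-571 than in WT (48.3% of all genes). Genes of the retinal pigment epithelium, which share Otx2 and several transport genes with the choroid plexus, summed to 13.1 to 20.8 CPM in WT and 17.5 to 23.3 CPM in KI-571 mice, with Rlbp1 at 16.01, 14.7 and 13.9 CPM in the 3 high mice. Liver makes Ttr as well. Alb, the albumin gene, was the only 1 of 12 tested liver genes past the adjusted threshold of edgeR, and was so against WT in KI-96 (log2 fold change 7.60 ± 1.06 SE, adjusted p = 0.00745, beside 0.027% of all genes), KI-571 (6.56 ± 1.08, adjusted p = 0.0281, beside 0.0324%) and KI-FL mice (6.16 ± 1.10, adjusted p = 0.0408, beside 0.194%). It was at or below 0.0818 CPM in WT mice and was highest in KI-96 mouse 4 (19.3 CPM), where Ttr was at 60.2 CPM, and it was at 2.62, 6.07 and 2.72 CPM in the 3 high mice. The 12 tested liver genes summed to 50.1 to 73.2 CPM in WT, 50.4 to 119 in KI-96, 68.5 to 85.4 in KI-571 and 62.5 to 68.3 CPM in KI-FL mice. Their mean log2 CPM was -0.82 to -0.37 in WT, -0.79 to 2.36 in KI-96, 0.16 to 1.07 in KI-571 and -1.19 to 0.79 in KI-FL mice. By that mean every KI-571 mouse was above every WT mouse.

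Genes of red cells and of cortical neurons were high in KI-571 mouse 2 but not in the other high mice alike. Red cell genes summed to 79.5 to 214 CPM in WT, 86.6 to 141 in KI-96, 163 to 483 in KI-571 and 43.5 to 103 CPM in KI-FL mice. Of these genes 5 of 5 were higher in KI-571 than in WT (48.3% of all genes), with Alas2 and Hbb-bt past the adjusted threshold (0.0324%). The beta-globin gene Hbb-bs was at 241, 132 and 28.1 CPM in KI-571 mouse 2, KI-571 mouse 4 and KI-FL mouse 1. The cortical genes were led by Slc17a7, the vesicular glutamate transporter of cortical neurons, at 329, 58.4 and 26.4 CPM in these mice and 819 CPM in WT mouse 3. Thalamic genes, led by Rora, Prkcd and Tcf7l2, summed to 95.6 to 173 CPM in KI-571 and 87.4 to 169 CPM in WT mice, and septal genes, led by Dgkg, Zic1 and Lhx8, to 86.4 to 94.8 and 73.2 to 143 CPM. The part of any of these cells in the choroid plexus result was not tested. Dissection and batch, which the labels do not give, were not tested either. With the log2 CPM of Xist as a covariate the log2 fold changes in KI-571 against WT stayed positive, from 1.675 for Enpp2 to 4.891 for Ttr. Adjusted p-values by edgeR in that fit were 0.0938 to 0.257. All KI-571 mice were low in Xist (0.913 to 5.05 CPM). KI-FL mouse 1 (1.06 CPM) and WT mouse 2 (0.267 CPM) had the lowest Xist of their genotypes. The part of sex in the choroid plexus result was not tested.

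**Figure D5:**
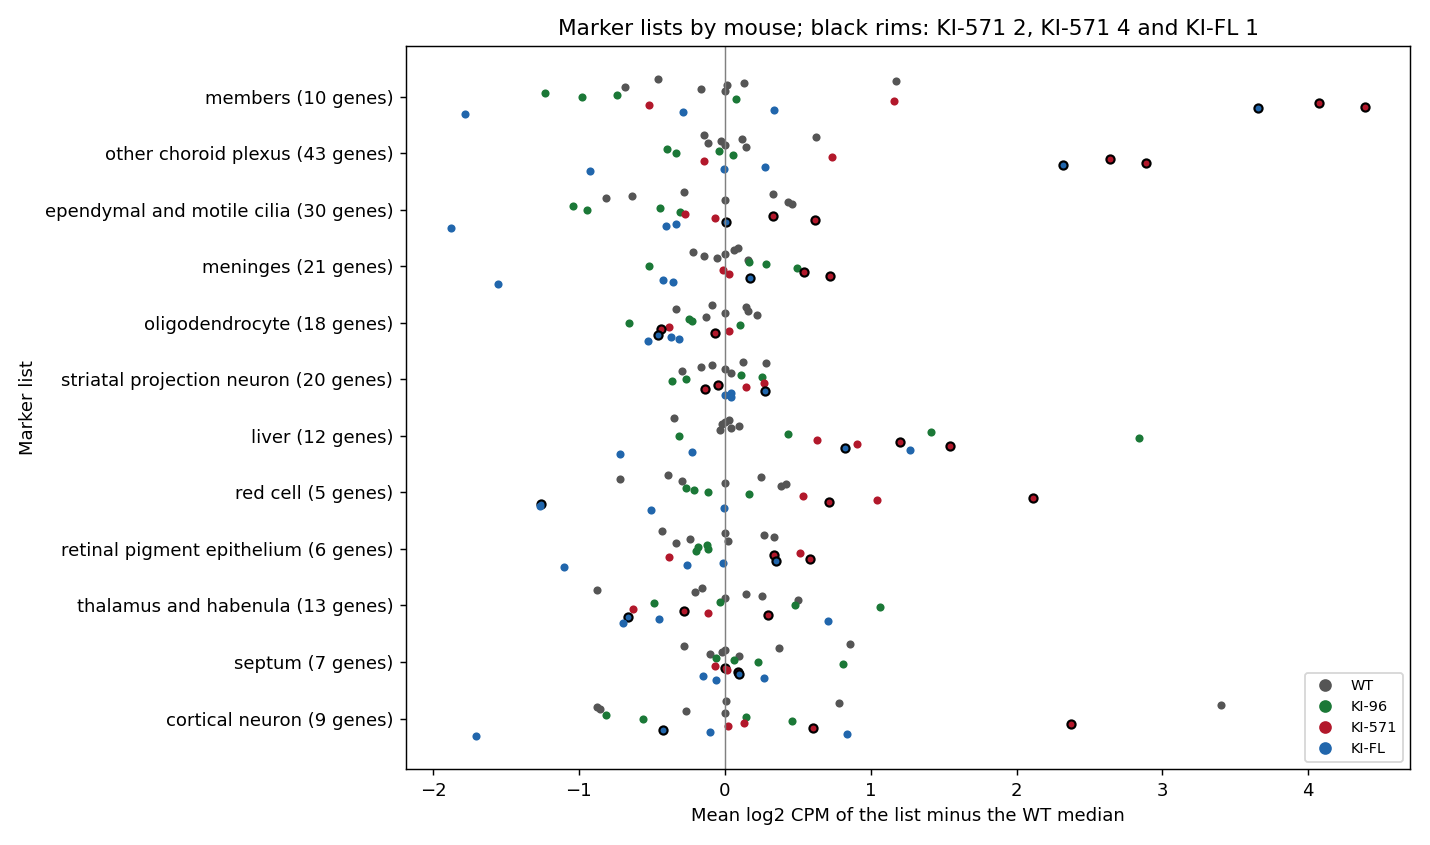
Mean log2 CPM of each marker list minus its WT median, 1 point per mouse coloured by genotype, with black rims on KI-571 2, KI-571 4 and KI-FL 1. The rimmed points lie between 2.32 and 4.39 above the WT median in the 2 choroid plexus lists, and within the range of the other 16 mice elsewhere, except for KI-571 4 in the ependymal (0.62), meningeal (0.72) and retinal pigment epithelium (0.59) lists and KI-571 2 in the meningeal (0.54) and red cell (2.12) lists.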

How the data were processed

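The table deposited by the authors holds whole-number read counts per gene for each mouse, not normalized. The authors trimmed reads with BBDuk, aligned them with STAR to GRCm38 and counted them with HTSeq. Versions, annotation and the strand setting are not given in the sources used here. The 5 HTSeq summary lines were left out of library sizes, and 4 columns that matched no sample were not used.

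Genes were kept by edgeR's filterByExpr (minimum count 10, minimum total count 15), scaled by TMM and tested with edgeR 4.0.16 (R 4.3.3) by the quasi-likelihood test, with 1 coefficient per genotype over all 19 mice. Benjamini-Hochberg adjusted p-values under 0.05 over all 18521 tested genes were calls. The study's model also had a 'sac batch' term, which the labels do not give. The study left out 1 WT mouse as a potential outlier. The sources used here do not name it, so all 7 labelled WT mice were kept. The number of mice per genotype that the study gives for its RNA sequencing is also below 7. Its WT set may therefore differ from the labelled one by more than 1 mouse. log2 CPM values have a prior count of 2. DESeq2 1.42.0, other filters, covariates and left-out mice were alternatives. Libraries of 12669809 to 26388542 counts put 3 counts at 0.106 to 0.238 CPM. Symbols, positions and lengths come from the GENCODE M21 annotation, and promoters from RefSeq, without chromosome 18. The scripts were tested on simulated data.

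The members and all gene lists were chosen with earlier results of these data known. Beside the members, the genes named were the 15 most and 5 least like Ttr, 6 choroid plexus genes by likeness and 4 by level, and the 3 most abundant genes of each other list. A gene under that rule is not reported here. Genes singled out beyond these were chosen after their values were seen. Labels do not say that mice of a genotype are unrelated, so p-values measure only the spread between these samples. No likeness has a p-value, since its points share library and depth.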

Additional observations from a re-analysis of the deposited data

Results flagged for a closer look

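The highest or lowest sample was compared with the others of its group for 100 groups of values, and 9 stood further apart than Dixon's 95% critical value, where chance gives about 5. Kl in WT mouse 2 was at 4.225 log2 CPM, where the other WT mice were between 2.37 and 3.17. The mean of the other choroid plexus genes in that mouse, 2.542 log2 CPM, also stood above the 1.78 to 2.06 of the other WT mice. Prlr in WT mouse 3 was low, at 0.295 log2 CPM against 1.58 to 2.55. Enpp2 in KI-FL mouse 1 was at 10.357 log2 CPM while its genotype otherwise lay between 7.83 and 8.25.

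The other 5 were not choroid plexus genes. Reads outside genes made up 24.164% in KI-96 mouse 3 against 11.8% to 12.7%, and 16384 genes were detected in KI-FL mouse 4. The mean log2 CPM of striatal genes was 9.062 in KI-FL mouse 1 against 8.79 to 8.83, that of liver genes was -0.822 in WT mouse 1 against -0.50 to -0.37, and that of cortical genes was 5.484 in WT mouse 3 against 1.21 to 2.86.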

How the results depend on the processing

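Counts of called genes are given in the order KI-96, KI-571 and KI-FL against WT, KI-96 and KI-571 against KI-FL, and KI-96 against KI-571. They were 5, 6, 36, 0, 16 and 1 as reported. They became 11, 29, 265, 9, 28 and 4 at an adjusted p under 0.1, 28, 115, 509, 38, 88 and 35 with DESeq2, and 23, 78, 85, 24, 25 and 35 with no filter on low counts. At least 10 counts in every mouse gave 0, 3 and 55 against WT and 0 for KI-96 against KI-571. WT mice 1 to 4 alone gave 0, 0 and 0 against WT. The compared genotypes alone gave 0, 55 and 336 against WT, 2 for KI-96 against KI-FL and 9 for KI-96 against KI-571. With Xist as a covariate 0 genes passed in KI-96 and KI-FL against WT and in KI-96 against KI-571. With Ttr as a covariate 2, 1 and 162 passed against WT, 5 between KI-571 and KI-FL and 0 between KI-96 and KI-571. The calls among the 10 choroid plexus genes in KI-571 against WT were 0 as reported (0.0324% of all tested genes), 2 at an adjusted p under 0.1 (0.157%) and 4 with DESeq2 (0.688%). They were 10 with no filter, beside 78 of 36846 tested genes, and 4 with these 2 genotypes alone, beside 55 of 17908. In KI-96 against KI-571 they were 4 with DESeq2 (0.189%) and 6 with no filter, beside 35 of 36846. The cause was not tested.

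With the replicate block the counts were 0, 1, 0, 1, 9 and 0, and the log2 fold change in KI-96 was 0.047 for Clic6 and 0.007 for Otx2. Deviations of same-numbered mice from their genotype means had r from -0.128 to 0.290 (median -0.005), with 5 of 24 pairs over 0.1. Mice of different numbers had r from -0.457 to 0.338 (median -0.005), with 11 of 108 pairs over 0.1. The labels give no litter or batch, so these values cannot settle whether the numbers pair the mice.

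Members that were lower in KI-96 than in WT changed sign under several settings. Clic6 was 0.001 with DESeq2 and 0.002 with its size factors in edgeR. With Xist as a covariate KI-96 was at 0.147 for Ttr, 0.103 for Kl, 0.320 for Folr1, 0.048 for Clic6, 0.243 for Otx2, 1.445 for Aqp1, 0.510 for Slc4a5, 0.600 for Sostdc1 and 0.025 for Enpp2. Without KI-571 mice 2 and 4 and KI-FL mouse 1, a choice made after seeing the data, 1 gene passed in KI-96 against WT and 0 in KI-571 against WT, KI-FL against WT, KI-571 against KI-FL and KI-96 against KI-571. The KI-571 log2 fold change was then -0.328 for Ttr, -0.620 for Prlr and -0.114 for Enpp2, and the KI-FL one -0.701 for Ttr, -0.134 for Kl, -1.298 for Folr1, -0.431 for Prlr, -0.527 for Slc4a5, -1.813 for Sostdc1 and -0.436 for Enpp2. The median r between member pairs was 0.674 by Spearman, 0.760 without the 2 mice farthest in Ttr and 0.595 without the 3 high mice. Leaving Enpp2 out of the mean log2 CPM gave 1.814 in WT and 1.051 in KI-96.

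Leaving out 1 mouse at a time gave 1 to 10, 0 to 46, 0 to 159, 0 to 9, 1 to 21 and 0 to 5 called genes. Calls among the 10 genes in KI-571 against WT ranged from 0 to 4, with 4 without KI-571 mouse 3 or without KI-FL mouse 1. In KI-96 the log2 fold change ranged from -0.135 to 0.157 for Clic6, -0.349 to 0.055 for Otx2 and -0.456 to 0.484 for Prlr. In KI-FL it ranged from -0.434 to 0.831 for Enpp2, -1.296 to 2.226 for Folr1, -0.143 to 2.312 for Kl, -0.424 to 1.555 for Prlr, -0.495 to 3.427 for Slc4a5, -1.841 to 2.164 for Sostdc1 and -0.699 to 3.684 for Ttr, with each lowest value without KI-FL mouse 1.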

Other observations

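Of all tested genes, 53 had in each of KI-571 mouse 2, KI-571 mouse 4 and KI-FL mouse 1 more than 2 times the highest level of the other 16 mice. They comprised the 10 members, 24 of the other choroid plexus genes and 19 genes on none of the lists. The 19 were chosen by these values, so the levels that follow are a description. Cldn1 and Cldn3, claudins of tight junctions, were at 10.1, 17.7 and 11.9 CPM and at 1.37, 2.09 and 2.26 CPM in the 3 mice, and at most 3.36 and 0.649 CPM in the others. Col4a3 and Col4a4, which encode chains of type IV collagen, were at 3.21, 5.37 and 2.46 CPM and at 5.42, 7.68 and 3.52 CPM, and at most 0.759 and 1.59 CPM elsewhere.

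Cdh3, a cadherin, was at 3.15, 2.42 and 2.19 CPM against at most 0.641 CPM. Col9a3, a chain of type IX collagen, was the most abundant of the 19, at 82.4, 101 and 53.0 CPM against at most 26.3 CPM. Oca2, a melanosomal transport protein known from pigment cells, was at 3.69, 6.12 and 5.84 CPM against at most 0.802 CPM. Over the 16 other mice the r of these genes with Ttr was low for Col4a3 (-0.05), Col4a4 (0.06) and Cldn1 (0.26) and higher for Oca2 (0.49), Cldn3 (0.49) and Cdh3 (0.43).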
